A study of Mus musculus with 39 samples.

Results

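The heat shock proteins described here are 8 chaperone genes measured in mouse testis: Hspa1l, Hspa2, Hspa4l, Hspa8, Hspa5, Hsp90aa1, Hsp90ab1 and Hspb1. They were taken by symbol from a fixed list, and all 8 are among the 32285 genes of the single-cell count tables. The study deleted Kdm6a, the X-linked histone H3 lysine 27 demethylase also called Utx, in male germ cells. Single-cell RNA sequencing was done on whole testis, dissociated with collagenase and then trypsin, with 1 library from a control (Kdm6a fl/y; Cre-) and 1 from a conditional knockout, written cKO below (Kdm6a fl/y; Ddx4-Cre+). Both genotypes carry the floxed allele, and Cre is driven by the germ-cell gene Ddx4, so somatic cells of the testis are not its target. Open chromatin (ATAC-seq) and the repressive mark H3K27me3 (CUT&Tag) were mapped in sorted cKIT+ spermatogonia of the same 2 genotypes, each in 2 control and 3 cKO libraries, with 1 IgG library as the antibody control. The labels give neither the age of the animals nor how many were pooled in a library.

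HSP70 proteins bind exposed stretches of unfolded proteins in cycles of ATP hydrolysis. J-domain proteins start each cycle and nucleotide exchange factors, among them the HSP110 relatives of HSP70, end it, while HSP90 takes over partly folded kinases, receptors and other clients with the help of its own cochaperones. Small heat shock proteins hold unfolded proteins without using ATP. Most tissues raise several of these genes under stress through heat shock factors, whereas developing male germ cells are known to make particular HSP70 members without stress.

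The promoters of Hspa5, Hspb1 and Hspa1l are shown first, because the 3 genes were highest in different cells (early spermatocytes, Sertoli cells and elongating spermatids) and the 250 bases upstream of their start sites differ in the stress motifs they hold. Sequences are from RefSeq on GRCm38.p6, 5′ to 3′ on the plus strand. Motifs were searched from 250 bases before to 50 bases after the start site, of which the upstream bases are printed, and positions are counted back from the start. The Hspa5 window is chr2:34771840-34772089, the Hspb1 window chr5:135887669-135887918 and the Hspa1l window chr17:34972453-34972702. Capitals mark matches on either strand to the ER stress element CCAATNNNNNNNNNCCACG, the CCAAT box, TGACG (the core of a cAMP response element) and the heat shock unit pair GAANNTTC.
Hspa5: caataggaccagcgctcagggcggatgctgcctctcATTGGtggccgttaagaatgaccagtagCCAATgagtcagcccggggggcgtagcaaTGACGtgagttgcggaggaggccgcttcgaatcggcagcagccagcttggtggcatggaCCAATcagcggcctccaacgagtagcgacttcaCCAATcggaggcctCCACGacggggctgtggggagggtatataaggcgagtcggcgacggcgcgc
Hspb1: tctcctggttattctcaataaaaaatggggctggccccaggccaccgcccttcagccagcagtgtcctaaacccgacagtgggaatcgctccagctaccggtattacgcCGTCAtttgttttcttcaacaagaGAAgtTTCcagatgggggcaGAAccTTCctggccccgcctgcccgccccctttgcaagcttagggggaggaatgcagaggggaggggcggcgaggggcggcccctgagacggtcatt
Hspa1l: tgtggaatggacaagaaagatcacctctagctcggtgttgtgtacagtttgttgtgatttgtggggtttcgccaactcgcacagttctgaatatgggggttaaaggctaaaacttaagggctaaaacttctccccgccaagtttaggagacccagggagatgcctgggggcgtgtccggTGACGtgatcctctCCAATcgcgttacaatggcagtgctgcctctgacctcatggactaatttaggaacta
Hspa5 held the ER stress element at -65 to -47, a match found in 0.13% of the 27025 mouse promoters of the same 300 bases. It also held 4 CCAAT boxes, at -214, -186, -98 and -65 (37.9% of all promoters had at least 1). Its CCAAT box at -65 is the first part of the ER stress element. Hspb1 held GAANNTTC at -117 and -97, which 7.95% of promoters had. Hspa1l held TGACG at -71 and CCAAT at -57. TGACG was present in all 5 members with an entry (these 3, Hspa2 and Hspa4l), against 21.0% of all promoters. The longer heat shock element, with GAA, TTC and GAA each 2 bases apart, was in none of the 5 windows and in 0.529% of all promoters. GC content was 62.4% for Hspa5, 59.2% for Hspb1 and 49.6% for Hspa1l, beside a median of 52.0% over the same 250 bases of all promoters, and CpG counts were 22, 12 and 9 beside a median of 6. A match describes these letters and does not show a bound site. Hspa8, Hsp90aa1 and Hsp90ab1 have no entry in the promoter table, and the entries of Hspa2 and Hspa4l begin inside the gene as annotated, so these are not printed.

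Barcodes with at least 3000 unique molecular identifiers (UMIs, each counting 1 captured RNA molecule) numbered 11252 in the control library and 8520 in the cKO library. They held 132867391 and 99072889 UMIs, 57.8% and 57.5% of each table, with medians of 8410.5 and 8499 UMIs per barcode. Only 30 barcodes occurred in both libraries, where chance gives 14.1. Kdm6a itself, in CPM (UMIs of the gene per 1000000 UMIs of the class), was 60.8 in control and 8.12 in cKO Stra8-positive germ cells (63 and 3 UMIs), 18.4 and 2.02 in early spermatocytes (68 and 4 UMIs), and 12.7 and 18.0 in Sertoli cells (18 and 20 UMIs). The values of these germ-cell stages thus followed the labels, on few cKO UMIs, and other germ-cell stages are not given here.

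Cells were assigned by summed levels of marker genes that include no heat shock gene, and each class is a range of marker levels, not a proven cell type. The classes are therefore spermatogonia-like, Stra8-positive (cells with a UMI of Stra8, the gene that marks entry into meiosis), early, mid and late spermatocyte-like, round spermatid-like, early and late elongating spermatid-like, Sertoli-like and Leydig-like. The suffix is dropped from here on. Cell numbers in control and cKO ran from 202 and 63 Stra8-positive cells to 3910 and 3100 late elongating spermatids, with 130 and 119 spermatogonia, 583 and 322 early spermatocytes, 232 and 156 Sertoli cells and 95 and 89 Leydig cells. Unassigned barcodes made up 11.2% and 9.20%. Between 1.05% (Leydig, control) and 48.0% (mid spermatocytes, control) of a class changed class when all limits were raised by 25% or lowered by 20%. A few classes were filled by different expression clusters in the 2 libraries. Among Stra8-positive cells, cluster 11 held 78.2% in control and 39.7% in cKO and cluster 12, which is also the spermatogonia cluster, 18.8% and 52.4%. The Sertoli class lay mostly in cluster 19 in control (62.9%, against 22.4% in cKO) and in cluster 22 in cKO (66.0%, against 26.7%). Early spermatocytes lay in cluster 9 (45.3% and 61.8%) and cluster 11 (34.1% and 15.2%). Markers of other classes moved with this: in Stra8-positive cells the median summed level of spermatogonia markers was 0 CPM in control and 325 CPM in cKO, and that of early spermatocyte markers 7094 and 4855 CPM. In the Sertoli class the elongating spermatid markers had a median of 24221 CPM in control and 9632 CPM in cKO, beside 11199 and 19422 CPM for Sertoli markers. Values of whole clusters (12 for spermatogonia, 11 for Stra8-positive cells, 9 for early spermatocytes, 22 for Sertoli cells, 21 for Leydig cells) are given beside a number of class values that they move. Cluster 11 was named by its summed markers. It held 248 early spermatocytes and 183 Stra8-positive cells, so its values mix both classes. Cluster 12 held 244 spermatogonia, 174 unassigned and 71 Stra8-positive cells among 598, so its values are not those of spermatogonia alone.

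With 1 library a genotype there is no test. Each ratio of cKO over control is given on the log2(CPM + 1) scale. Its exact 95% interval is that of the log2 ratio without the 1 CPM added, and covers counting error only. The order of classes is read from whether the 2 libraries of one class overlap those of the next. Levels are compared within a gene, not between genes. CPM is a share of all UMIs, so a gene can be lower in a class because other RNAs take more of it. Whether dissociation of the testis changed any of these levels was not tested.

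**Figure D1:**
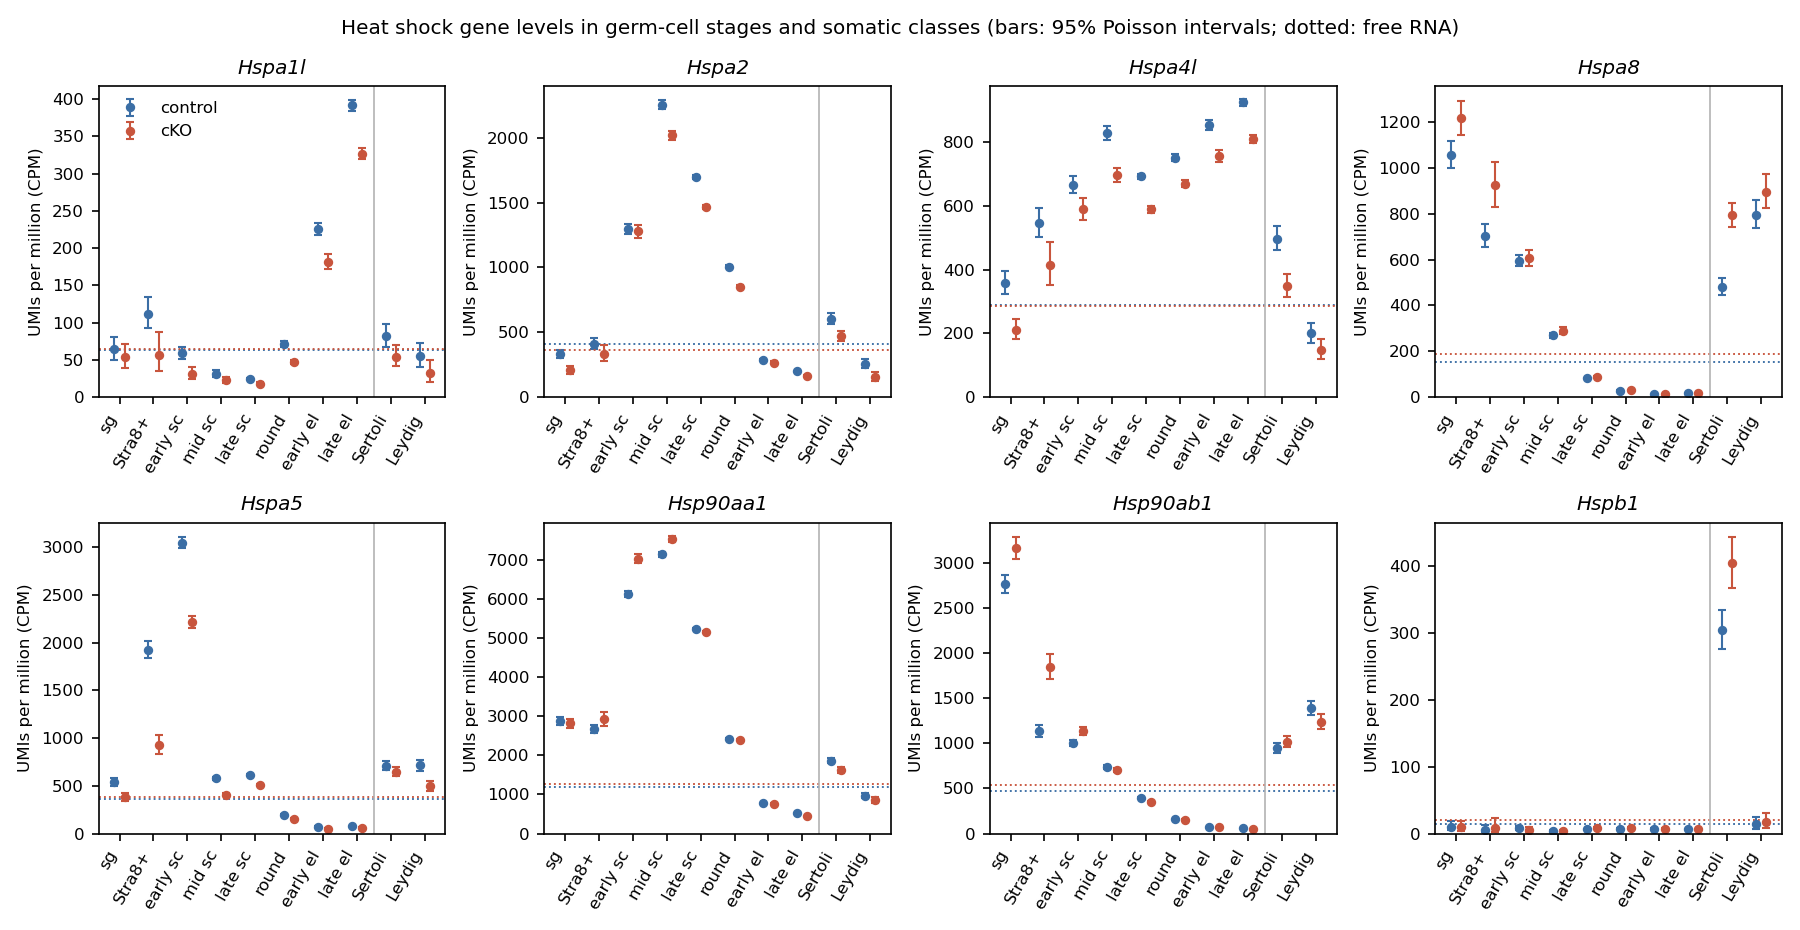
Level of each heat shock gene in CPM in the 10 cell classes, with 1 point per library (control and cKO) and bars for the exact 95% Poisson interval. The 2 points lie close together in most classes beside the differences between classes, as for Hspa5, between 3047 CPM in control early spermatocytes and 49.8 CPM in cKO early elongating spermatids.

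Hspa2 (chr12:76403812-76406938, plus strand) encodes the testis HSP70 that meiotic spermatocytes need to complete the first division. Its level was 331 CPM in control and 205 CPM in cKO spermatogonia, 411 and 336 CPM in Stra8-positive cells and 1298 and 1278 CPM in early spermatocytes. It was highest in mid spermatocytes, at 2254 and 2018 CPM. Hspa2 RNA thus stood highest in the middle of meiosis in both libraries, and late spermatocytes came next, with no overlap, at 1696 and 1462 CPM. Round spermatids had 1005 and 849 CPM, early elongating spermatids 285 and 265 CPM and late elongating spermatids 198 and 161 CPM. Early elongating spermatids, spermatogonia, Leydig cells and late elongating spermatids formed an overlapping low group. These 4 classes lay below the level in free RNA, 407 CPM in control and 364 CPM in cKO, which was read from barcodes with 10 to 100 UMIs. Here and below this is the level in free RNA alone, which could make up only part of a class's UMIs. The upper limit ran from 11.8% in cKO early elongating spermatids to 51.1% in cKO Sertoli cells. A class level below that of free RNA is thus not by itself background. Cluster 12, mixed as given above, had 423 and 317 CPM, beside the 331 and 205 CPM of the spermatogonia class. Cluster 21 had 266 and 284 CPM, beside the 255 and 156 CPM of the Leydig class. Sertoli cells had 605 and 468 CPM. Its gene overlaps 4930426I24Rik by 183 bases, and that gene's own level had a median of 11.7 CPM and a maximum of 75.9 CPM over the 20 class and library values.

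Hspa1l (chr17:34972703-34979228, plus strand) is a spermatid member of the HSP70 family that sits beside the stress-inducible Hspa1a in the major histocompatibility region. It was highest in late elongating spermatids, at 392 CPM in control and 327 CPM in cKO, followed without overlap by early elongating spermatids at 226 and 182 CPM. All other classes lay lower: round spermatids had 71.2 and 46.8 CPM, and the lowest values were 24.1 and 18.1 CPM in late spermatocytes. Before meiosis it had a second, smaller maximum in Stra8-positive cells, 112 CPM in control and 56.9 CPM in cKO, but these overlapped spermatogonia (64.2 and 53.6 CPM) and Sertoli cells (81.7 and 53.9 CPM). That maximum depended on how the cells were grouped: cluster 11 had 203 CPM in control and 222 CPM in cKO, level with the early elongating clusters at 199.7 and 160 CPM. Free RNA held 63.5 and 64.6 CPM. Among the marker classes only the elongating ones stood above it in both libraries, whereas among clusters 11, 12 (82.7 and 90.4 CPM) and 22 (89.0 and 98.2 CPM) did so too. Leydig cells had 54.9 and 32.7 CPM, and cluster 21 had 94.5 and 52.7 CPM. When every barcode was thinned to 3000 UMIs, Hspa1l had a UMI in 64.5% of control and 57.9% of cKO late elongating spermatids and in 7.18% and 5.52% of late spermatocytes. Hspa1a lies 547 bases away on the minus strand and is nearly identical to Hspa1b. Hspa1a was highest in Leydig cells, at 93.5 and 70.2 CPM, and no more than 11.7 CPM in every other class.

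Hspa4l (chr3:40744500-40796103, plus strand) is an HSP110 protein, a nucleotide exchange factor for HSP70 that is abundant in testis. Among the members that reached 20 CPM in a germ-cell stage, its level varied least over germ cells. It was 925 CPM in control and 809 CPM in cKO late elongating spermatids, and the libraries overlapped at each step down through early elongating spermatids (854 and 756 CPM), mid spermatocytes (830 and 698 CPM), round spermatids (750 and 670 CPM), late spermatocytes (692 and 589 CPM) and early spermatocytes (667 and 591 CPM). Stra8-positive cells had 545 and 414 CPM, below early spermatocytes without overlap, and spermatogonia 359 and 211 CPM. Between clusters the step lay between clusters 12 and 11 instead: cluster 11 had 669 and 570 CPM, which overlaps cluster 9 (691 and 628 CPM), and cluster 12 had 402 and 324 CPM. Leydig cells had the least, 199.8 and 148 CPM, under the 288 and 285 CPM of free RNA (287 and 241 CPM in cluster 21). The 211 CPM of cKO spermatogonia lay under free RNA too.

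Hspa8 (chr9:40801276-40805202) encodes the constitutive HSP70 that most cells use for folding, transport and the uncoating of clathrin vesicles. Spermatogonia had 1057 CPM in control and 1217 CPM in cKO, above every other class. Stra8-positive cells had 704 and 923 CPM and early spermatocytes 595 and 608 CPM. Cluster 11, which mixes these classes, had 415 and 392 CPM, below the 718 and 729 CPM of cluster 9. From early spermatocytes on the level stepped down, to 269 and 290 CPM in mid and 81.9 and 89.7 CPM in late spermatocytes. Spermatids held little: 27.3 and 28.7 CPM when round, and 13.1 and 11.9 CPM when early elongating, the lowest class. These lie below free RNA, at 152 and 189 CPM, as do late spermatocytes. Leydig cells (796 and 897 CPM) and Sertoli cells (481 and 792 CPM) overlapped Stra8-positive cells. Hspa8 has processed pseudogenes that can share reads with it, which makes its level uncertain by an amount that was not measured.

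Hspa5 (chr2:34772090-34776529, plus strand), also called BiP, is the HSP70 of the endoplasmic reticulum and a sensor partner of the unfolded protein response. It was sharply highest at the start of meiosis, with 3047 CPM in control and 2212 CPM in cKO early spermatocytes. Stra8-positive cells came next at 1926 and 929 CPM (2493 and 1596 CPM in cluster 11). Spermatogonia before them had 541 and 380 CPM, and mid spermatocytes after them 577 and 407 CPM. The high level thus spanned 2 adjacent stages of the 8 germ-cell stages. Late spermatocytes had 617 and 509 CPM, Sertoli cells 709 and 646 CPM and Leydig cells 715 and 494 CPM, each overlapping the next class in order. Round spermatids had 195 and 156 CPM and early elongating spermatids 69.7 and 49.8 CPM (51.8 and 31.1 CPM in their clusters). Free RNA held 360 and 378 CPM. After thinning to 3000 UMIs, Hspa5 had a UMI in 94.9% and 93.5% of early spermatocytes and in 22.7% and 16.5% of early elongating spermatids. The top 10% of early spermatocytes with the most Hspa5 held 29.7% and 29.1% of its UMIs. Free RNA could make up at most 30.9% of the UMIs of control and 31.8% of those of cKO early spermatocytes, a limit set by the markers of other cell types in them. Hspa5 overlaps Rabepk on the minus strand by 1921 bases. Rabepk had 70.2 and 69.8 CPM in early spermatocytes and was highest in round spermatids (238 and 265 CPM), where Hspa5 was low.

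The cytosolic HSP90 genes differed in timing. Hsp90aa1 (chr12:110691036-110696395), the inducible isoform whose loss arrests meiosis in mice, had 7140 CPM in control and 7522 CPM in cKO mid spermatocytes, its highest class. Early spermatocytes had 6131 and 7031 CPM and late spermatocytes 5240 and 5150 CPM, each step without overlap. Between clusters the mid and early values did overlap, at 7240 and 7558 CPM in cluster 8 and 6653 and 7278 CPM in cluster 9. Spermatogonia (2886 and 2823 CPM) and Stra8-positive cells (2682 and 2932 CPM) overlapped, but cluster 11 (3053 and 3289 CPM) lay above cluster 12 (2687 and 2647 CPM). Hsp90aa1 was thus highest across the spermatocyte stages and lowest at the end, with 519 and 445 CPM in late elongating spermatids. Free RNA held 1192 and 1265 CPM, above the elongating classes and Leydig cells (965 and 851 CPM). Hsp90ab1 (chr17:45567778-45573261), the constitutive isoform, was highest in spermatogonia instead, at 2765 and 3164 CPM. Stra8-positive cells had 1138 and 1846 CPM and early spermatocytes 1001 and 1136 CPM. The mixed cluster 11 had 535 and 558 CPM, below the 1168 and 1311 CPM of cluster 9. From early spermatocytes on it was lower at every step, through 396 and 349 CPM in late spermatocytes to 59.7 and 52.9 CPM in late elongating spermatids. Free RNA held 470.5 and 534 CPM of it, above late spermatocytes and every spermatid class. It could make up at most 13.5% of control and 12.6% of cKO late spermatocyte UMIs, so the level there was not free RNA alone. Leydig cells had 1393 and 1241 CPM and Sertoli cells 948 and 1016 CPM. Hsp90aa1 also has pseudogene copies that can share its reads, likewise not measured.

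Hspb1 (chr5:135887919-135889563, plus strand) encodes the small heat shock protein called HSP25 in mouse and HSP27 in human. Among the 10 classes compared it was highest in Sertoli cells, the somatic nurse cells of the tubule. It had 304 CPM in control and 403 CPM in cKO Sertoli cells. The next class, Leydig cells, had 14.02 and 17.2 CPM, and the mean over both libraries was 22.7 times lower there; cluster 21 had 14.6 and 39.5 CPM and cluster 22 had 245 and 359 CPM. All germ-cell stages lay between 3.15 and 10.6 CPM, below free RNA (13.9 and 20.9 CPM) and below the 20 CPM asked of a gene for a stage comparison. In thinned cells, 53.4% of control and 57.7% of cKO Sertoli cells had an Hspb1 UMI (68.1% and 73.1% before thinning), against 0.84% to 3.85% in the germ-cell stages, which share 1 droplet pool with them. Hspb1 was the single member that was highest in a somatic class. No class was made for peritubular, stromal or endothelial cells, so its level in them is not given. Free RNA could make up at most 13.5% of the UMIs of control and 12.6% of those of cKO late spermatocytes. The source of the few Hspb1 UMIs in germ cells was not tested.

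**Figure D2:**
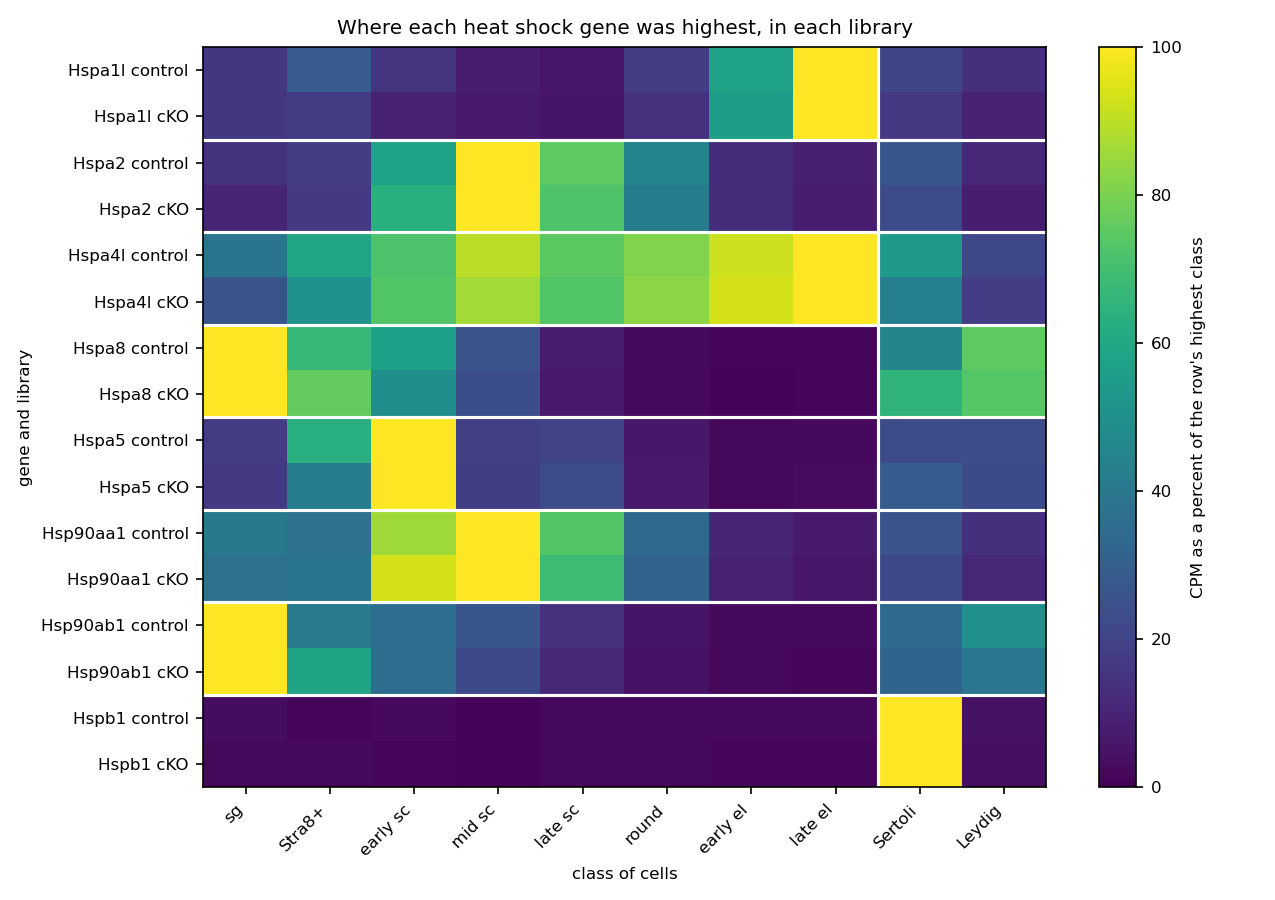
Level of each gene in each class as a percentage of that gene's own highest class, for the control and the cKO library. Read along a row, Hspa8 and Hsp90ab1 are highest in spermatogonia, Hspa5 in early spermatocytes, Hspa2 and Hsp90aa1 in mid spermatocytes, Hspa1l and Hspa4l in late elongating spermatids and Hspb1 in Sertoli cells.

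All 8 members had the same highest germ-cell stage in both libraries, as did 82.2% of 10677 genes that reached 20 CPM in a stage, which Hspb1 did not. Hspa8 and Hsp90ab1 (and, below 20 CPM, Hspb1) peaked in spermatogonia, a stage that was highest for 16.4% of genes in both libraries. Hspa5 peaked in early spermatocytes (6.61% of genes), Hspa2 and Hsp90aa1 in mid spermatocytes (7.97%), and Hspa1l and Hspa4l in late elongating spermatids (6.54%). The highest stage was at least 4 times the lowest in both libraries for 6 of 8 members, Hspa4l and Hspb1 being the others, and for 89.6% of genes. On the CPM + 1 scale the fold from lowest to highest germ-cell stage was 75.05 in control and 94.46 in cKO for Hspa8, 45.55 and 58.74 for Hsp90ab1, and 43.1 and 43.5 for Hspa5. It was 15.6 and 17.2 for Hspa1l, 13.7 and 16.9 for Hsp90aa1, 11.3 and 12.5 for Hspa2, and 2.57 and 3.83 for Hspa4l. These folds rest on low stages where several genes lie under free RNA, and subtracting free RNA moved them to 993 and 1147 for Hspa8, 2565 and 2965 for Hsp90ab1 and 2936 and 342 for Hspa5. Except for Hspa5 in cKO (342), the subtraction left no level in the lowest stage, so these are folds over the 1 CPM added. The others moved less, to 22.7 and 29.4 for Hspa1l, 22.8 and 28.0 for Hspa2, 31.9 and 24.97 for Hsp90aa1 and 3.60 and 7.37 for Hspa4l. With classes from clusters the Hspa5 fold was 73.2 and 91.4.

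**Figure D3:**
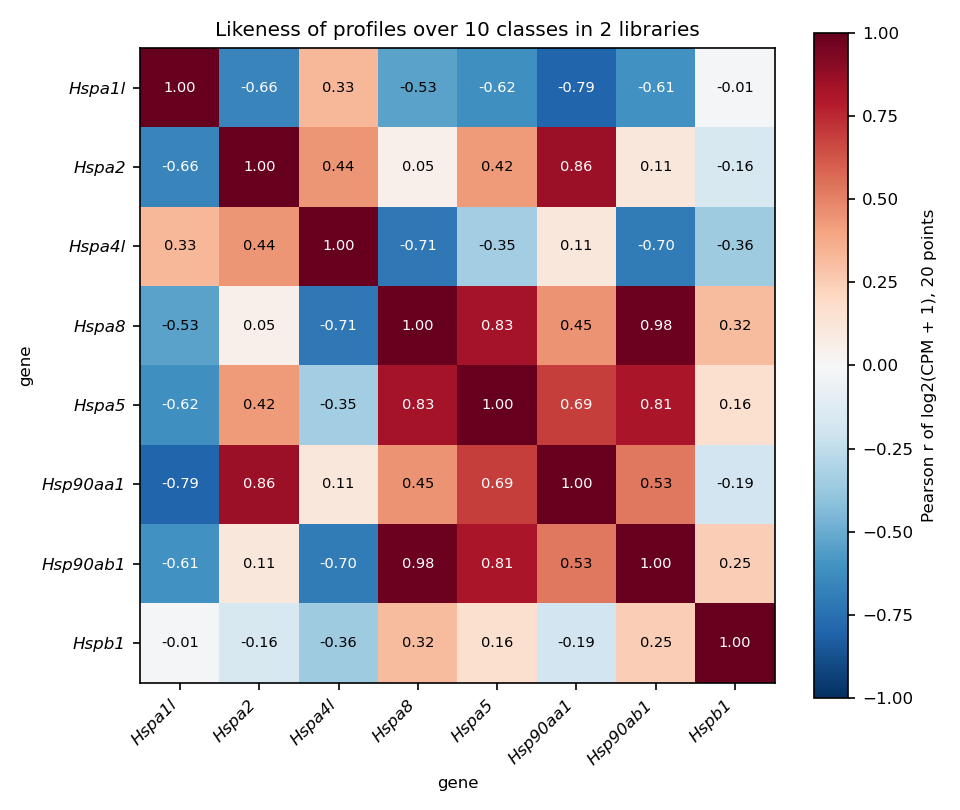
Pearson correlation of log2(CPM + 1) between each pair of heat shock genes over 20 points, the 10 classes in each of the 2 libraries. Hspa8 and Hsp90ab1 are the closest pair at 0.98, and Hspa1l and Hsp90aa1 the most opposed at -0.79.

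Correlations over the 20 class and library values describe how alike the profiles are. The points share 2 libraries and the same stages, so they carry no p-value. Among members, Hspa8 and Hsp90ab1, the constitutive cytosolic pair, had the most similar profile (0.98), and Hspa2 and Hsp90aa1, the spermatocyte pair, came next (0.858). Hspa5 correlated with Hspa8 at 0.832 and with Hsp90aa1 at 0.69. The most opposed pairs were Hspa1l with Hsp90aa1 (-0.791) and Hspa4l with Hspa8 (-0.711). Among the other 11959 genes that reached 20 CPM in a class, the profile nearest to Hspa2 was that of Clgn (0.984), the testis calnexin-like chaperone calmegin, followed by Kctd19 (0.976) and Sephs2 (0.972). Hspa1l was closest to Cabs1 (0.986), 4921507P07Rik (0.984) and Fam71f2 (0.983). Hspa5 was closest to Mib1 (0.966), Dazap2 (0.965) and Hsp90b1 (0.956), the last being the HSP90 of the endoplasmic reticulum. The nearest genes were Qdpr (0.994), Arhgdia (0.990) and Hp1bp3 (0.988) for Hspa8, Strada (0.983), Spag5 (0.983) and Trim28 (0.982) for Hsp90aa1, and Nol7, Ppp2ca and Tor1a (each 0.986) for Hsp90ab1. Hspb1 was closest to Rhou (0.970), Gja6 (0.969) and Tmem114 (0.965). Hspa4l had the weakest best match, Cep57l1 at 0.931, then Polb (0.917) and 4931428L18Rik (0.912).

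The chaperone partners had their highest levels in all 8 germ-cell stages, including some where no member peaked. Of 21 other heat shock genes, 13 reached 20 CPM in a germ-cell stage and 11 of these had the same highest stage in both libraries. Hspa4, Hspa14 and the mitochondrial pair Hspd1 and Hspe1 were highest in spermatogonia. Hsp90b1, Hyou1 and Hspa13, all of the endoplasmic reticulum, were highest in early spermatocytes, the stage of the Hspa5 peak. Hsp90b1 had 1829 CPM there in control and 1584 CPM in cKO, and its fold over germ-cell stages was 22.7 and 23.0. Of 12 endoplasmic reticulum folding and stress-response genes only 3 were highest there in both libraries, beside the 6.61% of all genes given above: Calr (1933 and 2119 CPM) and Canx, the lectin chaperones, and Pdia6. The other 9 peaked elsewhere or differently in the 2 libraries. Pdia3 and Xbp1 were highest in spermatogonia, Pdia4 and P4hb in Stra8-positive cells, Atf4 in mid and Ddit3 in late spermatocytes, and the testis forms Pdilt and Calr3 in round and early elongating spermatids. Clgn was highest in mid spermatocytes in control and in late spermatocytes in cKO. Of 20 J-domain genes, 19 were tested and 16 had the same highest stage. Dnajb3, Dnajb4, Dnajb8 and Dnajc5b were highest in late elongating spermatids. Of the 4 listed J-domain genes that serve Hspa5 in the lumen of the endoplasmic reticulum, Dnajc3 and Dnajc10 were highest in early spermatocytes in both libraries, Dnajb11 in Stra8-positive cells in control and early spermatocytes in cKO, and Dnajb9 in round spermatids. Of 10 HSP90 cochaperones tested 8 had the same highest stage in both libraries: Stip1, Ptges3 and Chordc1 in early spermatocytes, Cdc37 and Fkbp6 in spermatogonia, Fkbp5 in Stra8-positive cells, Ppid in mid and Fkbp4 in late spermatocytes. Of 9 exchange factors and HSP70 cochaperones 9 did, of 12 endoplasmic reticulum genes 11, and of 5 heat shock factors and regulators 3. The exchange factors Bag3, Bag6 and Sil1 were highest in late spermatocytes, and Hsf5, a heat shock factor of the testis, in mid spermatocytes.

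**Figure D4:**
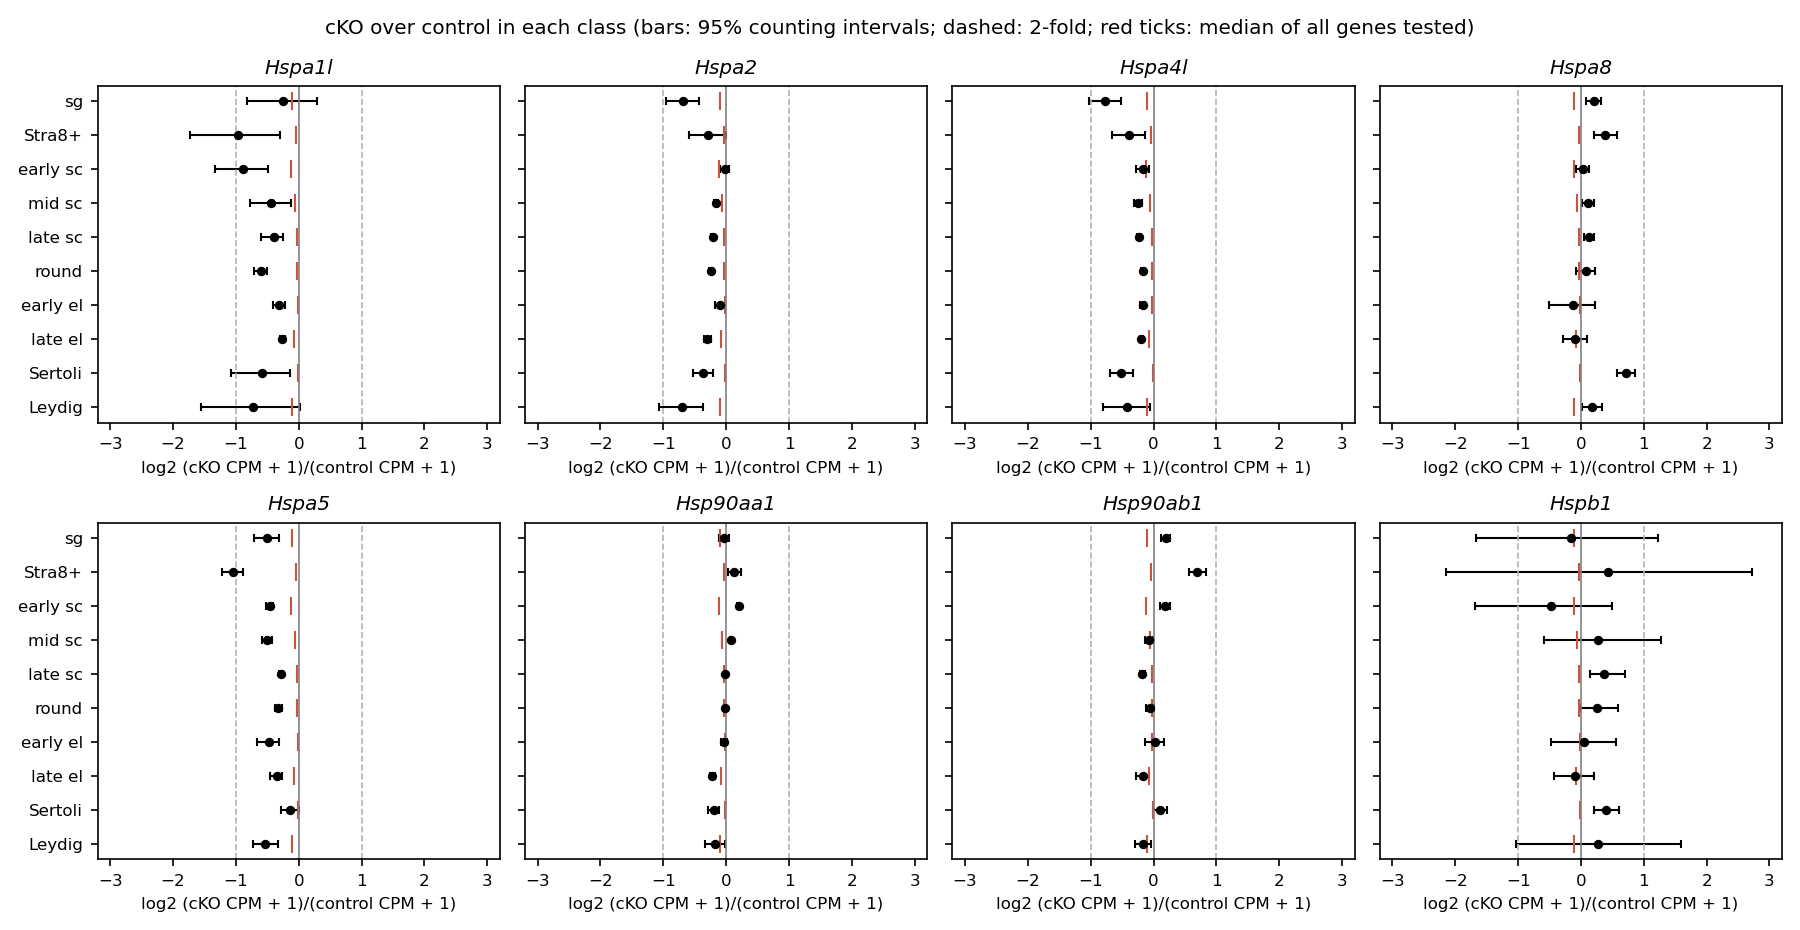
Log2 ratio of cKO over control CPM for each heat shock gene in each of the 10 classes, with exact 95% intervals for counting error. Hspa1l, Hspa2, Hspa4l and Hspa5 lie below 0 in all 10 classes, and Hspa5 in Stra8-positive cells, at -1.05, is the single value past 2-fold.

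Between genotypes a single value of a member in a class passed 2-fold: Hspa5 in Stra8-positive cells, 1926 CPM in control and 929 CPM in cKO, a log2 ratio of -1.05 (-1.22 to -0.89). In that class 7.18% of 10514 genes were at least 2-fold lower and 4.65% at least 2-fold higher, so 1 member in 8 is near the background. Over all pairs of a gene and a class, 2.49% were at least 2-fold lower and 1.07% at least 2-fold higher. The difference was smaller within a cluster: in cluster 11 Hspa5 had 2493 CPM in 494 control cells and 1596 CPM in 122 cKO cells (-0.64, -0.74 to -0.55), and in cluster 12 it had 627 and 418 CPM (-0.59). The class value moved with the cluster makeup given above, whose part in it was not tested. It fell short of 2-fold when barcodes from 2000 UMIs were admitted (-0.89). The count of 1 depends on free RNA: with its upper limit subtracted from each class 12 values passed 2-fold, among them Hspa5 at 2.61 and 3.98 in early and late elongating spermatids and Hsp90ab1 at 3.28 in early elongating spermatids, classes where both genes lie below free RNA. For these the amount subtracted exceeded the control level, so the ratio is over the 1 CPM added and shows no measured rise.

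Hspa5 was lower in cKO in all 10 classes, and its interval lay below 0 in 9 of them. In early spermatocytes, where it is highest, the ratio was -0.46 (-0.51 to -0.41), in mid spermatocytes -0.50, in late spermatocytes -0.28 and in round spermatids -0.32. Somatic cells, which Cre does not target, gave -0.53 in Leydig and -0.13 (-0.28 to 0.00) in Sertoli cells. In free RNA Hspa5 was not lower, with 360 CPM in control and 378 CPM in cKO. Over all barcodes it had 426 and 299 CPM (-0.51). Early spermatocytes made up 5.18% of control and 3.78% of cKO barcodes, and Stra8-positive cells 1.80% and 0.74%. The part of this cell makeup in the pooled value was not tested. Hspa4l was also lower in all 10 classes, each time with its interval below 0, from -0.16 in round spermatids to -0.76 (-1.03 to -0.51) in spermatogonia. Hspa2 was lower in 10 of 10, from -0.02 in early spermatocytes to -0.70 in Leydig cells, with 9 intervals below 0. In cluster 21, the Leydig cluster, it was 0.09 (-0.16 to 0.35); with the libraries scaled to the median gene of each class or with the marker limits raised or lowered it was no longer lower in every class. Hspa1l was lower in 10 of 10 with 8 intervals below 0. Its ratio was -0.97 (-1.72 to -0.30) in Stra8-positive cells, -0.89 (-1.34 to -0.49) in early spermatocytes and -0.26 (-0.30 to -0.22) in late elongating spermatids. Elongating spermatids are the class where Hspa1l and Hspa4l are highest, and their markers were also lower in cKO in several of these classes. The median summed level of the 10 elongating spermatid markers was 10188 CPM in control and 7206 CPM in cKO spermatogonia, 16966 and 9456 CPM in Stra8-positive cells, 14493 and 8501 CPM in early spermatocytes and 14143 and 10201 CPM in round spermatids. In late elongating spermatids themselves it was 221115 and 241016 CPM. None of the 10 markers was at 0, and their part in the Hspa1l and Hspa4l ratios was not tested.

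These 4 of 8 members stand beside 11.5% of 8264 genes that were lower in all 10 classes and 2.9% that were higher in all 10. The 8264 genes had at least 10 UMIs over both libraries in every class, which Hspb1 did not, so it is not among them. The share was not taken over genes of like level, and ratios on few UMIs change sign more easily. The median ratio over all genes ran from -0.12 in early spermatocytes to -0.02 in Sertoli cells and is contained in each member's ratio. All 10 ratios of a gene come from the same 2 libraries and do not count as 10 observations. Of the 4, Hspa4l was lower in every class under all 12 processing settings that could change a sign, whereas Hspa5 was not once barcodes from 2000 UMIs were admitted or free RNA was subtracted. Within clusters, Hspa5 and Hspa4l were lower in each of 23 clusters with at least 50 cells in both libraries (4.59% of 7476 genes were, and 0.696% were higher in each), with medians of -0.41 and -0.19 and intervals below 0 in 21 clusters each. Hspa2 was lower in 22 of the 23 (median -0.28), cluster 21 being the exception. Hspa1l was lower in 20 (median -0.33) but not in clusters 11, 12 and 22 (0.13, 0.13 and 0.14). In cluster 11, which holds much of the Stra8-positive class, it had 203 CPM in control and 222 CPM in cKO, whereas in cluster 9 it had 99.3 and 39.1 CPM (-1.32).

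The remaining members showed no common direction. Hspa8 was higher in cKO in 8 of 10 classes, with 6 intervals above 0, but in 13 of 23 clusters. Its largest ratio, 0.72 (0.57 to 0.87) in Sertoli cells, came from 481 and 792 CPM. Within cluster 22 it was 560 and 710 CPM (0.34) and within cluster 19 89.5 and 89.3 CPM (-0.00). Cluster 19 is mixed, with 304 late elongating spermatids and 181 Sertoli cells, so its values are not those of Sertoli cells alone. Hsp90aa1 was higher in early spermatocytes, 0.20 (0.17 to 0.23) and 0.13 in cluster 9, and lower in late elongating spermatids, -0.22 (-0.26 to -0.18). Hsp90ab1 was higher in Stra8-positive cells, 0.70 (0.56 to 0.83), where the cKO cells come more from cluster 12. Within cluster 11 it had 535 and 558 CPM (0.06) and within cluster 12 2372 and 2497 CPM (0.07). It was lower in late spermatocytes, -0.18 (-0.22 to -0.14). Hspb1 in Sertoli cells was 0.41 (0.21 to 0.60) higher, and 0.55 (0.32 to 0.79) within cluster 22, from 245 and 359 CPM, but -0.34 in cluster 19, from 128 and 101 CPM. The part of cell makeup in these ratios was not tested.

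Among partners, the endoplasmic reticulum folding and stress-response genes had median ratios below 0, as all genes did. Of the 14 genes listed 12 matched the tables, and 0 passed 2-fold in any class. Their median log2 ratio was below 0 in all 10 classes, and so was that of all genes tested. In germ cells it was -0.42 in spermatogonia, -0.26 in Stra8-positive cells, -0.30 in early, -0.33 in mid and -0.18 in late spermatocytes, beside -0.10, -0.04, -0.12, -0.06 and -0.03 over all genes. It was -0.16 in round, -0.06 in early elongating and -0.26 in late elongating spermatids beside -0.03, -0.02 and -0.08, and -0.12 in Sertoli and -0.18 in Leydig cells beside -0.02 and -0.10. Pdia3, a disulfide isomerase, had 480 CPM in control and 365 CPM in cKO early spermatocytes (-0.39). Hyou1, the HSP110 protein that serves Hspa5, had 143 and 85.97 CPM there. Calr went the other way at that stage, with 1933 and 2119 CPM. Dnajc10 passed 2-fold in spermatogonia, with 71.2 and 29.1 CPM (-1.26), as did 4.78% of genes in the lower direction; in cluster 12 it was -0.90. In Stra8-positive cells Cdk1 (34.8 and 89.3 CPM, 1.34) and Ccnb1 (64.7 and 146 CPM, 1.16), the cell-cycle kinase and cyclin that HSPA2 is known to serve, were past 2-fold higher in cKO. Within clusters neither was: Cdk1 had 41.7 and 37.6 CPM (-0.15) in cluster 11 and 59.3 and 73.7 CPM (0.31) in cluster 12, and Ccnb1 had 50.7 and 60.1 CPM (0.24) and 157 and 181 CPM (0.20). Cluster 12 held 18.8% of control and 52.4% of cKO Stra8-positive cells. Hspb6 (7 and 7 UMIs, 1.36) and Unc45a (6 and 6 UMIs, 1.34) passed it there on few UMIs, and were at -0.29 and -0.41 in cluster 11 and -0.45 and -0.48 in cluster 12.

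In somatic classes the partners past 2-fold included genes of spermatids. In Leydig cells Dnajb7 had 52.6 CPM in control and 14.03 CPM in cKO (-1.83), Hsf5 39.7 and 12.5 CPM (-1.60), Dnajb12 30.4 and 14.03 CPM (-1.06) and Dnaja4 58.4 and 28.1 CPM (-1.03). In cluster 21, the Leydig cluster, they were -1.81, -0.43, -0.95 and -1.35. The elongating spermatid markers had a median of 7871 CPM in control and 6191 CPM in cKO Leydig cells. Unc45a was higher on 2 and 8 UMIs (2.01). In Sertoli cells Dnajb7 had 92.3 and 44.9 CPM (-1.02) and Bag3, an exchange factor induced by stress, 13.4 and 4.49 CPM (-1.39). Hspa1a in Sertoli cells rested on 3 control and 13 cKO UMIs (2.03). Within cluster 22 Dnajb7 had 79.5 and 69.8 CPM (-0.19), Bag3 13 and 4 UMIs (-1.80) and Hspa1a 3 and 12 UMIs (1.36). The background in Leydig cells was 8.07% of genes at least 2-fold lower and 2.61% higher, and in Sertoli cells 3.62% lower and 2.85% higher. In the Sertoli class the elongating spermatid markers differed as given above. The part of these markers in the Leydig and Sertoli values was not tested.

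**Figure D5:**
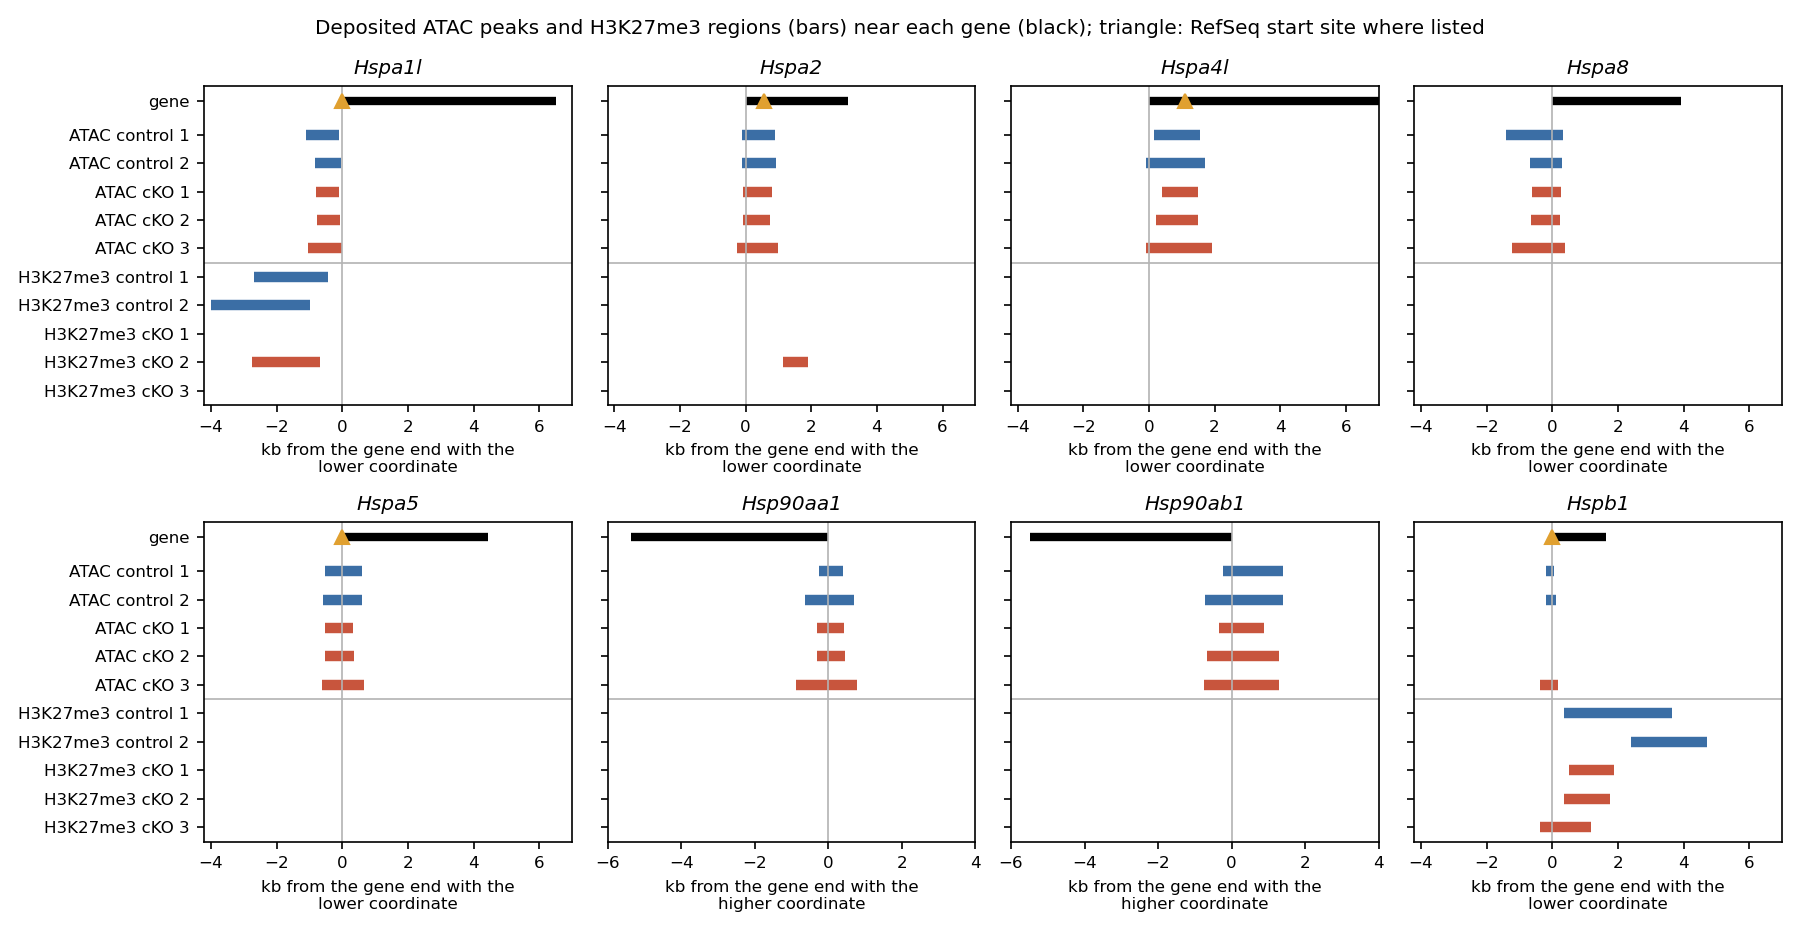
ATAC peaks and H3K27me3 regions around the heat shock genes in cKIT+ spermatogonia, drawn as bars by distance from an end of each gene, with 1 line per library (2 control and 3 cKO for each assay). ATAC bars lie at the aligned end of each gene, in 3 of 5 libraries for Hspb1, while H3K27me3 bars occur near Hspb1, Hspa1l and Hspa2.

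Chromatin was read from the authors' peak lists for single libraries of sorted spermatogonia, on mm10. A start site within 1000 bases of an ATAC peak in all 5 libraries was found for 4 of the 5 members with a listed start (Hspa1l, Hspa2, Hspa4l and Hspa5), and for 25.5% of 27025 start sites. For Hspa2, Hspa4l and Hspa5 the start lay inside a peak in all 5. The fold enrichment given by the authors' peak caller was 7.499 and 7.07 in control and 7.10, 8.51 and 6.16 in cKO for Hspa2, and 6.32 and 6.27 in control and 7.97, 8.56 and 6.07 in cKO for Hspa5, so the genotypes overlapped for both. The peak near Hspa1l ended 4 to 99 bases before its start in every library and covered the start of the minus-strand Hspa1a, at base 34972156, so it cannot be given to one of these genes. Hspb1 had a peak in both controls (fold 3.47 and 4.00) and in cKO 3 (4.35), but not in cKO 1 and cKO 2, whose lists are 14635 and 18883 peaks long beside 19118, 33250 and 40497 in the other 3. The 3 genes without a listed start had a peak at 1 gene end in all 5 libraries: Hspa8 at its lower coordinate (fold 4.14 to 7.20), and Hsp90aa1 (4.08 to 6.66) and Hsp90ab1 (3.45 to 4.14) at their higher coordinate. No share of all genes with a peak at either end was taken. Every Hsp90ab1 peak also covered the start of the plus-strand Gm35399, at base 45573315 and 54 bases away, so it cannot be given to one of these genes.

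H3K27me3, which KDM6A removes, was near no member's start in all 5 libraries (0 of 5, against 5.77% of start sites). No region lay near Hspa4l, Hspa5, Hspa8, Hsp90aa1 or Hsp90ab1 in any library, and 82.3% of the 27025 start sites had none in any library either. Hspa8, Hsp90aa1 and Hsp90ab1 were judged by the gene span, for which no share over all genes was taken. Hspb1, below free RNA in every germ-cell stage, had a region within 1000 bases in control 1 and in all 3 cKO libraries. The region lay at 357 bases in control 1, at 520 and 365 bases in cKO 1 and cKO 2, and over the start in cKO 3. In control 2 the nearest region began 2406 bases from the start, 762 bases past the gene end, so all 5 libraries had a region within 1000 bases of the Hspb1 gene. No share over all genes was taken for this wider span. Hspa1l had one in control 1, control 2 and cKO 2, at 419, 978 and 681 bases on the side of Hspa1a, and Hspa2 in cKO 2 alone, at 581 bases. The IgG list of 1449 regions had none at any member. With 2 control and 3 cKO libraries an exact permutation test cannot go below 0.1, so no member's peak calls could differ past 0.05 between genotypes.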

How the data were processed

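Single-cell tables are deposited UMI counts per gene and barcode, as the authors made them. The submitters' processing notes list Cell Ranger, Seurat 4.1.0, cutadapt, Bowtie2, SAMtools, MACS2, SEACR, deepTools and the build mm10, without roles. Nothing read here states whether counting used strand. ATAC peaks carry a fold enrichment (ratio) and a −log10 q in the deposited lists, as the authors' peak caller gave them. The ATAC lists also hold an integer score per peak, deposited by the authors. The H3K27me3 regions carry a deposited total signal. Both were used for position and the ATAC fold for description, and score or signal chose the stronger peaks in an alternative.

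Counts were summed per class and library (Python 3.11.15, pandas 2.3.3, scipy 1.17.1) and divided by the summed UMIs of the class. Exact Poisson intervals cover counting error only. Ratios used 1 CPM added, which their intervals did not. A gene entered a ratio from 10 UMIs over both libraries and a stage comparison from 20 CPM in at least 1 stage. Clusters came from scanpy 1.11.5 and leidenalg 0.10.2 (3000 variable genes, 40 components, 15 neighbours, resolution 1.0), without removing the likely doublets that Scrublet called (591 control and 512 cKO barcodes). Limits of the marker scores were set on marker levels after these were seen, not on the 8 members, and Dmrtb1 was left out of the spermatogonia score for its level in other stages. Macrophage-like cells (14 and 9) were too few to compare. The 2-fold rule and the ratio interval were tried on simulated counts of early spermatocytes and Stra8-positive cells, and the highest stage on simulated stage profiles. The other shares and the correlations were not tried this way. Names follow a rule: the 8 members, the 3 most correlated genes of each, and up to 3 partners each way per list past the fold in a class. Partners named for their stage or for their values below the fold were chosen after their values were seen. The members and lists were chosen with earlier results of these data known. Bulk RNA-seq was planned with edgeR but not used, since its tables give transcript IDs that the files do not pair with genes. The promoter table matched 5 of 8 members.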

Additional observations from a re-analysis of the deposited data

Results flagged for a closer look

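Hsp90aa1 and Hsp90ab1 each had ratios of opposite sign between germ-cell stages, with intervals for counting error that exclude 0 on both sides. For Hsp90aa1 the log2 ratio of cKO over control was 0.20 in early spermatocytes and -0.22 in late elongating spermatids. For Hsp90ab1 it was 0.70 in Stra8-positive cells and -0.18 in late spermatocytes. With 1 library a genotype the difference between stages was not tested. Within cluster 11, which holds most control Stra8-positive cells, Hsp90ab1 was 0.06, and within cluster 12, which holds most cKO ones, 0.07.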

How the results depend on the processing

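Each member's ratio in its own highest germ-cell stage kept its sign under the 12 settings that could change it, the reported one included, Hspa5 in early spermatocytes between -0.65 and -0.35. The highest stage was as reported in 86 of 88 checks (Hspb1 was the exception), and of 107 single values 93 stayed within their interval and 14 moved out of it. The count of values past 2-fold, 1 as reported, was 0 with a minimum of 2000 UMIs per barcode and 0 with 5000, where the Stra8-positive class is too small, 2 with classes from clusters, 12 with free RNA subtracted, and, chosen after seeing the data, 2 with stricter gate limits and 2 without shared barcodes. Hspa5 in Stra8-positive cells was -0.89 with 2000 UMIs and -0.64 with clusters. The 4 members lower in every class became 2 with clusters (Hspa4l and Hspa5) and 2 with free RNA subtracted (Hspa1l and Hspa4l). They became 3 with 2000 UMIs (without Hspa5) and 3 with median scaling and with stricter and looser gate limits (each without Hspa2). After that subtraction the Hspa5 ratio was 2.61 and 3.98 in early and late elongating spermatids, where its level had been below that of free RNA. The amount subtracted exceeded the control level there, so these are ratios over the 1 CPM added, not a measured rise in cKO. The upper limits used were 24.4% of control and 11.8% of cKO UMIs in early elongating spermatids, and 25.4% and 12.1% in late ones. The cause of the other moves was not tested. Hspa4l was lower in every class under all 12. Leaving out 1 library gave 4 to 4 members at an ATAC peak and 0 to 1 at H3K27me3, the 1 being Hspb1 without control 2. No paired analysis was possible because each genotype has 1 single-cell library and the peak calls were not tested. Alternatives for bulk RNA and for a best score 4 times the second were not run.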
